A study of Mus musculus with 12 samples.

Results

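Of the 12 libraries of a mouse retina series, 6 are compared here: 3 from mice with a deletion of ABCA1 in glia (KO) and 3 from control mice, all taken at 3 months of age. The other 6 libraries hold the same genotypes at 12 months and enter only the estimate of spread and a comparison between the ages. The libraries were chosen by their titles and genotype labels, and every one of the 27179 gene IDs in their count files that passed an expression filter was tested, which left 16475 genes. The genotype label of the KO group reads Glia-ABCA1KO, while the protocol text calls the animals Astro-KO. The promoter or driver line behind the deletion is not given in the sources used here, nor are strain and sex. Both groups were labelled as retinal tissue, and no treatment is named. Nor is it stated that each library is its own animal. The p-values therefore describe only how far these libraries scatter, part of which could be technical.

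ABCA1 is a membrane transporter that loads cholesterol and phospholipids onto apolipoproteins, and in the retina, as in the brain, glia make much of the apolipoprotein E that carries these lipids to neurons. Müller glia span the whole retina, while astrocytes lie along the ganglion cell axons at its inner surface. The series is concerned with the effect of ABCA1 loss in these cells on the optic nerve and retina. The eye also holds tissues that a dissected retina should lack, chiefly the lens, whose fibre cells are filled with crystallins, and the striated muscles that move the globe.

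Total counts per library ran from 29027099 to 30418704 in the 6 libraries of 3 months, with 18541 to 18704 genes detected. Control replicate 2 stood apart from its group. A chi-square statistic of its counts against those of control replicates 1 and 3, divided by its degrees of freedom, was 40.7 and 39.7. Counting noise of independent reads alone would give 1. Pairs counted as separate reads, as appears to be the case here, would give more. The same statistic was 4.09 between control replicates 1 and 3 and 3.45 to 4.73 among the KO libraries. Of 14302 genes with a mean of at least 1 CPM (counts scaled to library size), 120 were more than 2-fold above and 163 more than 2-fold below the other 2 controls in it. The same counts were 25 and 80 for control replicate 1 and 39 and 54 for control replicate 3. Results are given with all 6 libraries, and the values that it moved most also without it. Genes of the lens, of skeletal muscle and of other non-retinal tissues were described apart from genes of retinal cells.

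At 3 months, 37 of the 16475 genes tested (0.225%) passed an adjusted p of 0.05 between the genotypes (edgeR quasi-likelihood test, Benjamini-Hochberg). Of these, 26 were lower in KO retina (0.158%) and 11 were higher (0.0668%). The lower genes were 19 members of a skeletal muscle list, the lens gene Lgsn, 3 further muscle genes (Des, Myl2 and Pgam2, grouped so after their values were seen), and Iqcm, Tagap and Hsf1. The higher genes were 10 neighbours within the first 13 Mb of chromosome 3 and Tagap1 on chromosome 17. Marker genes of photoreceptors, bipolar, horizontal and amacrine cells, Müller glia, astrocytes, microglia and endothelium did not pass the test, nor did any gene of the cholesterol lists. At an unadjusted p below 0.05 there were 1235 genes.

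Leaving out control replicate 2 again gave 37 calls, 26 lower (0.156% of 16707 genes tested) and 11 higher (0.0658%). The 2 sets shared 29 genes, with 8 called only with that library and 8 only without it. Those gained were the lens genes Cryba2, Crybb3, Crygb and Mip, the chromosome 3 genes Hey1, Pkia and Zc2hc1a, and the transcribed pseudogene Tmem181b-ps. Those lost were Lgsn, the muscle genes Myh4, Mybpc1, Myl2 and Pgam2, and the chromosome 3 genes Pag1, Zfhx4 and Zfp704.

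**Figure D1:**
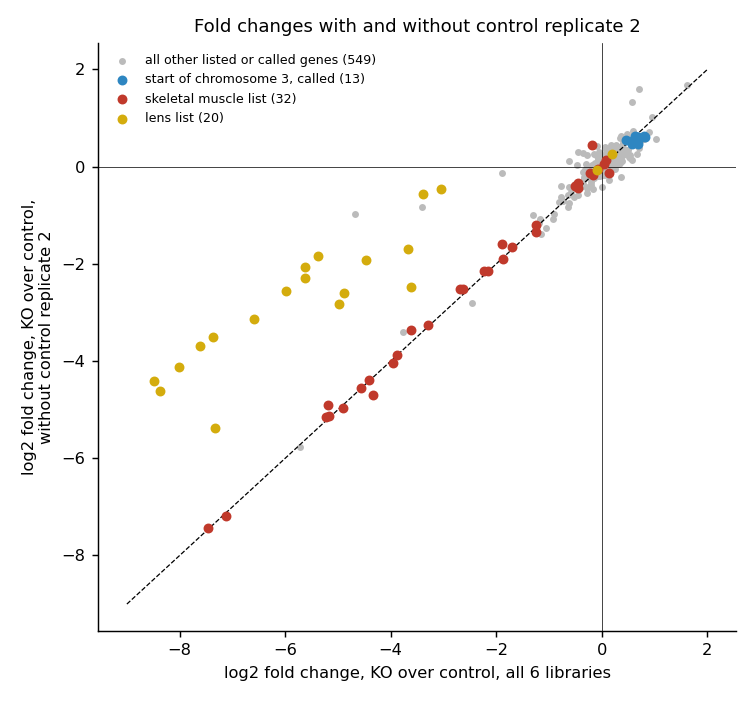
Log2 fold changes of KO over control at 3 months, fitted with all 6 libraries (x axis) and without control replicate 2 (y axis), 1 point per gene of the lists or the calls. The dashed line marks equal values. Muscle genes and the called genes at the start of chromosome 3 lie along it, while most lens genes lie above it, with a list median of -5.50 with the library and -2.52 without it.

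The targeted gene was examined first. Abca1 (Entrez 11303, chr4:53030789-53159988, GRCm38) had 609, 623 and 794 counts in the control libraries and 816, 793 and 718 in the KO libraries. The highest control value lay within the range of the KO values, so the groups overlapped. Its level was 22.7 ± 3.34 CPM in control and 26.3 ± 1.78 CPM in KO retina (SD, n = 3 each). The log2 fold change was 0.21 ± 0.14 (SE), with adjusted p = 0.70 (edgeR), and the 2-sided exact permutation p was 0.2, where 3 against 3 libraries allow no p below 0.1. Reads were summed over the whole gene and from all retinal cells, so these values do not test the deletion in the targeted glia.

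The clearest fall was that of skeletal muscle genes. Of the 34 genes on the muscle list 32 were tested, and 19 of them were lower in KO retina and 0 higher, with a median log2 fold change of -2.19 against 0.00 over all genes tested. In 23 of the 32 all 3 KO values lay below all 3 control values, whereas 7.66% of all genes tested did so and 7.97% lay above. A different number of cells of a type and a different amount of RNA per cell cannot be told apart in bulk tissue, here and below. The summed share of the list was 0.0251%, 0.0255% and 0.0242% of the counts in the control libraries and 0.0106%, 0.0114% and 0.0109% in the KO libraries. The groups were well separated and each was tight, at 0.0250% ± 0.000669 in control and 0.0110% ± 0.000385 in KO retina (SD, n = 3 each). The control share was 2.28 times the KO share, with p = 0.1 in an exact 2-sided permutation test, the smallest that 3 against 3 libraries allow. The 95% binomial interval of a share (Clopper-Pearson) was at most 0.000576 percentage points to either side, for counting error only. Control replicate 2 did not stand apart in this list, and without it the median was -2.15 and the ratio 2.25.

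**Figure D2:**
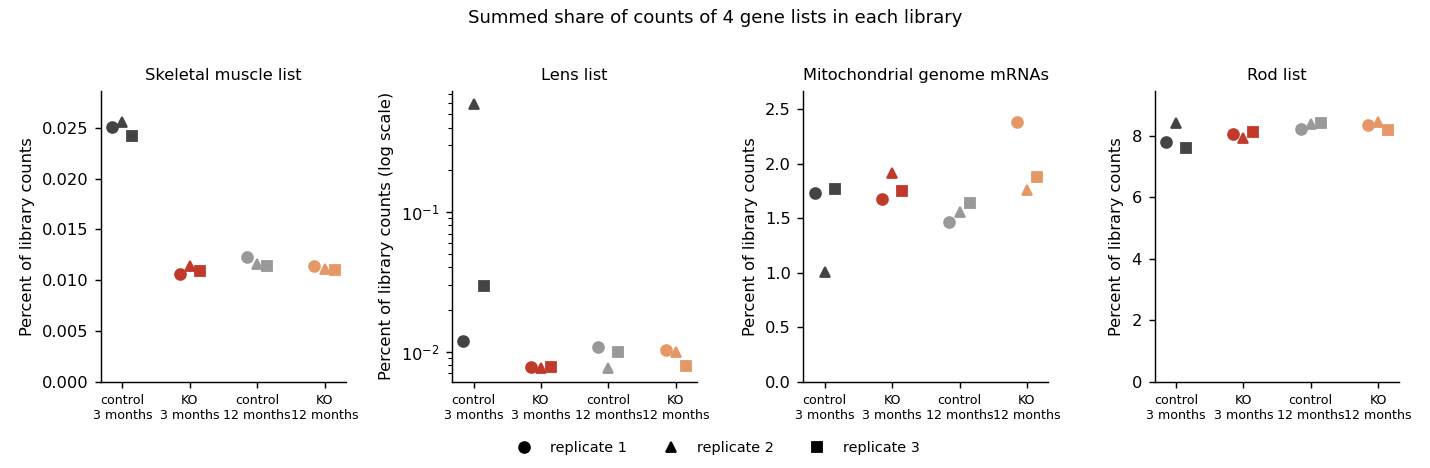
Summed share of library counts (y axis, percent) of the skeletal muscle, lens, mitochondrial mRNA and rod lists in each of the 12 libraries, by group (x axis), with a log axis for lens. The 3 control libraries of 3 months hold 0.0242% to 0.0255% muscle counts, above all others, and control replicate 2 holds 0.587% lens counts and has the lowest mitochondrial share, 1.002%.

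The muscle genes that were lower in KO retina encode proteins of the contractile filaments and proteins that handle calcium, oxygen and ATP. Tnnc2, the calcium-binding troponin subunit of fast muscle (Entrez 21925, chr2:164777161-164779734), had 378, 429 and 344 counts in control and 8, 17 and 5 in KO libraries. All 3 KO values were a small fraction of any control value. The level went from 12.9 ± 1.43 to 0.341 ± 0.216 CPM (SD, n = 3 each), a log2 fold change of -5.23 ± 0.28 (SE; adjusted p = 1.1e-09, edgeR). The fast troponin subunits Tnni2, the inhibitory one, and Tnnt3, which binds tropomyosin, followed the same course. Tnni2 had 274, 269 and 235 counts in control against 0, 4 and 0 in KO libraries. Tnnt3 had 475, 474 and 467 in control against 7, 42 and 10 in KO libraries, with KO replicate 2 the highest of its group. Their log2 fold changes were -7.46 ± 0.58 and -4.56 ± 0.51 (SE; adjusted p = 1.1e-06 and 0.0012).

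Among the motor proteins, the fast heavy chain Myh1 had 224, 182 and 204 counts in control and 2, 2 and 0 in KO libraries, a log2 fold change of -7.11 ± 0.47 (SE; adjusted p = 2.3e-08). Myh4, another fast heavy chain, had 256, 255 and 211 against 0, 29 and 4. KO replicate 2 held most of the KO reads of Myh4, and its call was lost without control replicate 2 (adjusted p = 0.058). Myosin heavy chain genes are partly alike in sequence (18.7% of the 50-base words of Myh1 occur in Myh2), so reads could be split between them. The fast regulatory light chain Mylpf differed less, with 259, 208 and 187 counts in control against 54, 70 and 53 in KO libraries. Its log2 fold change was -1.87 ± 0.21 (SE; adjusted p = 3.6e-05).

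Acta1, the actin of the thin filament (Entrez 11459, chr8:123891758-123894775), had 448, 547 and 427 counts in control and 77, 80 and 69 in KO libraries, and its log2 fold change was -2.64 ± 0.18 (SE; adjusted p = 2.3e-08). Its partner Tpm2, a tropomyosin, went from 301, 302 and 290 to 59, 78 and 62 counts, with a log2 fold change of -2.15 ± 0.20 (SE). Ttn, the giant spring protein of the sarcomere, went from 236, 185 and 223 to 88, 107 and 75 (-1.24 ± 0.20, SE), and Tcap, which caps it at the Z disc, from 229, 304 and 204 to 25, 52 and 36 (-2.69 ± 0.29, SE). Each of these 4 genes had KO values wholly below the control values. Of the genes that support contraction, the calcium pump Atp2a1 went from 464, 491 and 377 to 71, 96 and 114 counts (-2.23 ± 0.21, SE). The oxygen store Mb went from 369, 314 and 247 to 14, 24 and 24 counts (-3.89 ± 0.35, SE). Of Tpm2, Ttn, Tcap, Atp2a1 and Mb, Ttn had the highest adjusted p, 0.0045 (edgeR). The other 7 list members that were lower in KO retina were Myl1, Ckm, Cox6a2, Ckmt2, Myh2, Trdn and Mybpc1.

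**Figure D3:**
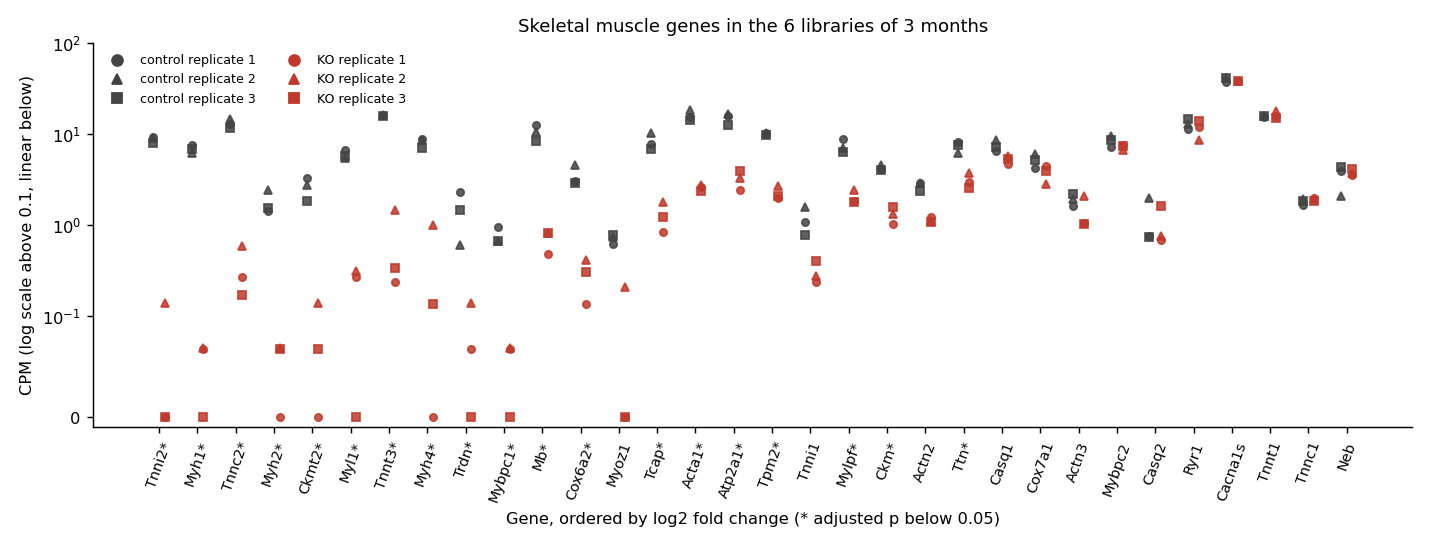
Level of each of the 32 tested skeletal muscle genes in the 6 libraries of 3 months (y axis in CPM, log scale above 0.1 and linear below), ordered by log2 fold change (x axis), with control in grey, KO in red and a marker shape per replicate. The 19 genes with an asterisk passed the test, and genes at the right, such as Cacna1s at 39.6 CPM in control and 37.9 CPM in KO retina, overlap between the groups.

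Other genes of the list did not pass the test. Cacna1s, a voltage-gated calcium channel subunit that is also made in retina, had 1078, 1220 and 1237 counts in control and 1112, 1118 and 1120 in KO libraries, a log2 fold change of -0.06 ± 0.08 (SE). The slow troponins Tnnt1 and Tnnc1 stood at 0.04 ± 0.11 and 0.08 ± 0.24 (SE), the calcium release channel Ryr1 at -0.17 ± 0.15 (SE) and the thin-filament ruler Neb at 0.13 ± 0.23 (SE). All 5 had KO values within or across the control range. Des, the intermediate filament of muscle and of vessel wall cells, was the 1 gene of 15 tested on the pericyte and smooth muscle list that passed, with 149, 165 and 167 counts in control against 63, 81 and 65 in KO libraries (-1.19 ± 0.20, SE; adjusted p = 0.0086, edgeR). The smooth muscle actin Acta2 had 117, 371 and 122 against 140, 170 and 131 counts, highest in control replicate 2.

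The 3-month control group stood alone in muscle counts. At 12 months the muscle share was 0.0114% to 0.0123% in control and 0.0110% to 0.0114% in KO libraries, close to the 3-month KO group, and the median log2 fold change of the list was 0.21. Tnnc2 had 8, 10 and 9 counts in 12-month control and 10, 12 and 8 in 12-month KO libraries. Acta1 had 71, 63 and 62 against 88, 53 and 63. The KO effect at 3 months minus that at 12 months was -5.38 for Tnnc2 and -2.69 for Acta1 on the log2 scale, both with adjusted p = 2.2e-05 (edgeR, interaction).

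Lens genes had lower values in KO retina, by an amount that rested on control replicate 2. Of the 26 genes on the lens list 20 were tested, and 1 passed with that library and 4 without it, all lower (edgeR). DESeq2 called 10 of the 20 with it and 7 without it, and limma-voom 4 with it. The summed share was 0.0119%, 0.587% and 0.0297% of the counts in the control libraries and 0.00776%, 0.00765% and 0.00783% in the KO libraries. The 3 KO libraries were alike, and control replicate 2 held far more than any other library, with control replicate 3 next. The control mean was 27.1 times the KO mean with control replicate 2 and 2.69 times without it (exact 2-sided permutation p = 0.1 and 0.2, each the smallest possible at 3 against 3 and 2 against 3 libraries). All 20 tested genes were higher in control replicate 2 than in the mean of the other controls, by a median of 4.62 on the log2 scale. In 17 of 20 the KO values lay wholly below the control values, against 7.66% of all genes tested.

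Cryaa, the alpha crystallin chaperone confined largely to lens, had 373, 57360 and 2002 counts in control and 51, 45 and 69 in KO libraries. Even the lowest control value exceeded every KO value, yet the 3 controls differed so much among themselves that the change did not pass (log2 fold change -8.48 ± 2.04, SE; adjusted p = 0.50, edgeR). Without control replicate 2 it was -4.41 ± 0.85 (SE; adjusted p = 0.25). Crybb2, a beta crystallin, had 298, 33883 and 1246 against 77, 56 and 44 counts (adjusted p = 0.54, and 0.67 without the library). Cryab, the alpha crystallin that many tissues make, had 1366, 29477 and 2284 against 1272, 1329 and 1330, so that control replicate 1 lay near the KO libraries.

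With all 6 libraries 1 of the 20 lens genes passed, the lens glutamine synthetase-like gene Lgsn (27, 98 and 15 against 2, 5 and 4 counts), at a log2 fold change of -3.61 ± 0.68 (SE; adjusted p = 0.022), and its adjusted p was 0.27 without control replicate 2. Without that library 4 passed. Cryba2, a beta crystallin (Entrez 12958), had 81 and 288 counts in the remaining controls against 15, 12 and 4 in KO libraries, at -4.13 ± 0.63 (SE; adjusted p = 0.018). Mip, the aquaporin of lens fibres (Entrez 17339), had 45 and 168 counts against 13, 17 and 23, at -2.57 ± 0.51 (SE; adjusted p = 0.045). Crybb3, a further beta crystallin, was at -2.07 ± 0.36 (SE; adjusted p = 0.018). Crygb, a gamma crystallin, had 38 and 28 counts against 0, 2 and 0. For Crygb the summed counts give a ratio of 49.9 between these controls and KO, with a 95% counting interval of 13.3 to 420.2, and 29.4% of its 50-base words also occur in Crygc. The lens transcription factor Foxe3 had 0, 1497 and 56 counts in control and 0 in each KO library, and the filter left it out of the test. Hsf4 and Lenep, both on the list, did not follow the crystallins, with log2 fold changes of -0.10 ± 0.11 and 0.19 ± 0.16 (SE).

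To show the sequence at the start of genes that were lower in KO retina, 2 promoters each of muscle and lens genes are printed. They run from 250 bases before to 50 after a RefSeq start (build GRCm38.p6), 5′ to 3′ on the gene's strand. The start used for Mylpf lies inside the gene, which spans chr7:127208848-127214288. Acta1 and Mylpf are shown as muscle genes that passed, and Mip and Cryba2 as lens genes that passed without control replicate 2. In all 4, capitals mark CAGCTG, the core of an E-box that muscle regulatory factors bind. They also mark TGCTGA, the core of the element that Maf factors of lens fibres bind, which in Cryba2 lies on the opposite strand and so reads as its reverse complement. Capitals also mark the TATA box TATAAA where it was found.
Acta1, chr8:123894726-123895025, minus strand: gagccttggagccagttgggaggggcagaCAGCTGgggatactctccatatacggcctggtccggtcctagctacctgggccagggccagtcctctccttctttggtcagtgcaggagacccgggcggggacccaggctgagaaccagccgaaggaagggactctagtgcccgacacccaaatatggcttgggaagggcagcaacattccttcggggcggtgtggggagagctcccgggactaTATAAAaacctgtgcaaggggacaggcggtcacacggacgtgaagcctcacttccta
Mylpf, chr7:127211358-127211657, plus strand: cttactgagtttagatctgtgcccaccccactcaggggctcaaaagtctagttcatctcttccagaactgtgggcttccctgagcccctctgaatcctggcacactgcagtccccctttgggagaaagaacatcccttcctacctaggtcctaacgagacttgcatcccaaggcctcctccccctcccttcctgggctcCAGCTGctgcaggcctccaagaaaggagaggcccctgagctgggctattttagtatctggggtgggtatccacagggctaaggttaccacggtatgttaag
Mip, chr10:128225560-128225859, plus strand: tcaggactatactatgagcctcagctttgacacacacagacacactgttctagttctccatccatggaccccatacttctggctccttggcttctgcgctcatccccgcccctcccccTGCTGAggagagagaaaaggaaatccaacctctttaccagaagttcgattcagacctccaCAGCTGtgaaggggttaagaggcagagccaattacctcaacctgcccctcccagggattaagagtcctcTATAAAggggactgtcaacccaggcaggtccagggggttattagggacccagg
Cryba2, chr1:74893094-74893393, minus strand: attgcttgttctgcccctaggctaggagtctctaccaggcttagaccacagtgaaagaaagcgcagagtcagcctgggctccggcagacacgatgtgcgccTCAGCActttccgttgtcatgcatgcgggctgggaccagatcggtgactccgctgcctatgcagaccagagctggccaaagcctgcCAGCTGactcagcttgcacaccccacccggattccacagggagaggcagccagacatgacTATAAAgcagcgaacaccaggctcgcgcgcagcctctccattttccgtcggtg

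Distances are counted from the RefSeq starts used, and whether transcription begins there was not tested. In Acta1 the CAGCTG begins 221 bases before the start and the TATAAA 7 bases before it. In Mylpf the CAGCTG begins 51 bases before the start used, which lies inside the gene. In Mip the TGCTGA lies 132 bases before the start and in Cryba2 149 bases before it on the opposite strand, each with TATAAA 3 bases before the start. Both lens promoters hold CAGCTG too, beginning 72 bases before the start in Mip and 63 in Cryba2. Other promoters, which are not printed, held fewer matches. Those of Tnnc2 and of Crygb, a lens gene that also passed without control replicate 2, hold none of the 3 motifs. That of Crybb3, which passed likewise, holds TGCTGA only. Among called muscle genes, Myh1 holds TATAAA only, while Ckm holds CAGCTG and TGCTGA. The printed promoters therefore do not stand for all genes that passed. Searching both strands, CAGCTG occurred in 9 of the 14 called muscle genes with a promoter in the RefSeq table (64.3%), and in 5 of 18 tested lens genes with a promoter (27.8%), against 5355 of 32851 promoters (16.3%). TGCTGA occurred in 14 of the 18 lens genes (77.8%), against 19.5% of all promoters, and in 5 of the 14 muscle genes. TATAAA occurred in 5 of 14 muscle and 6 of 18 lens genes, against 13.6% of all. These are matches of letters and do not show binding.

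Lists of other non-retinal tissues gave no call. None of 11 tested genes of cornea and skin epithelium, 15 of fibroblast and sclera, 16 of pigment epithelium and melanocytes or 3 of red blood cells passed by edgeR, DESeq2 or limma-voom. The smallest adjusted p in these lists was 0.65, 0.59, 0.63 and 0.54 (edgeR). An unadjusted p below 0.05 was found for 1, 3, 3 and 2 genes, and for 1235 of all 16475 genes tested. Aldh3a1, the crystallin-like enzyme of cornea, had 8, 814 and 36 counts in control and 23, 4 and 6 in KO libraries, and only control replicate 2 was high. The melanin enzyme Dct had 410, 773 and 399 against 288, 348 and 283 counts, and its log2 fold change went from -0.77 to -0.39 without that library. The fibrillar collagen Col3a1, also of tendon and vessel, had 78, 37 and 45 counts against 31, 27 and 18 (log2 fold change -1.06 ± 0.35, SE; adjusted p = 0.59). The red blood cell list had a median log2 fold change of 0.88 over the 3 genes tested, all above 0. Its summed share was 0.000425%, 0.000362% and 0.000416% in control against 0.00117%, 0.000475% and 0.000614% in KO libraries, so that all KO values lay above the control values. The control share was 0.532 times the KO share, with p = 0.1 in the exact 2-sided permutation test, the smallest possible. This p was not particular to other tissues. The same test gave it for the shares of the Müller glia, astrocyte, amacrine, bipolar and horizontal cell lists. It also gave it for the GABA and glycine receptor, glutamate receptor, immediate early and sterol synthesis lists. For Müller glia the control share was 1.05 times the KO share. The alpha globin gene Hba-a1, which has the near copy Hba-a2, had 40, 40 and 31 counts against 227, 50 and 62, and KO replicate 1 stood out. The part of other tissue in the muscle and lens results was not tested, since no label records the dissection.

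Lists of retinal cell types had medians near 0. The list medians (log2 fold change) with all libraries, and then without control replicate 2, were 0.06 and 0.09 for 24 rod genes, 0.03 and 0.07 for 15 cone genes, -0.03 and -0.02 for 21 bipolar genes, -0.04 and -0.03 for 11 horizontal cell genes and -0.01 and 0.01 for 26 amacrine genes. They were -0.03 and -0.02 for 24 Müller glia genes, -0.06 and 0.02 for 19 astrocyte genes, 0.15 and 0.09 for 22 microglia genes and 0.00 and -0.01 for 19 endothelial genes. None of these genes passed in either fit (edgeR), nor by DESeq2, while limma-voom called Sst and Esrrb. At an unadjusted p below 0.05 there were 1 rod, 2 cone, 1 bipolar, 0 horizontal, 5 amacrine, 3 Müller glia, 2 astrocyte, 1 microglia and 0 endothelial genes. Over all 16475 genes tested there were 1235. On the ganglion cell list 1 of 26 passed, Stmn2, which lies in the chromosome 3 group described below, and the list median was -0.01.

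**Figure D4:**
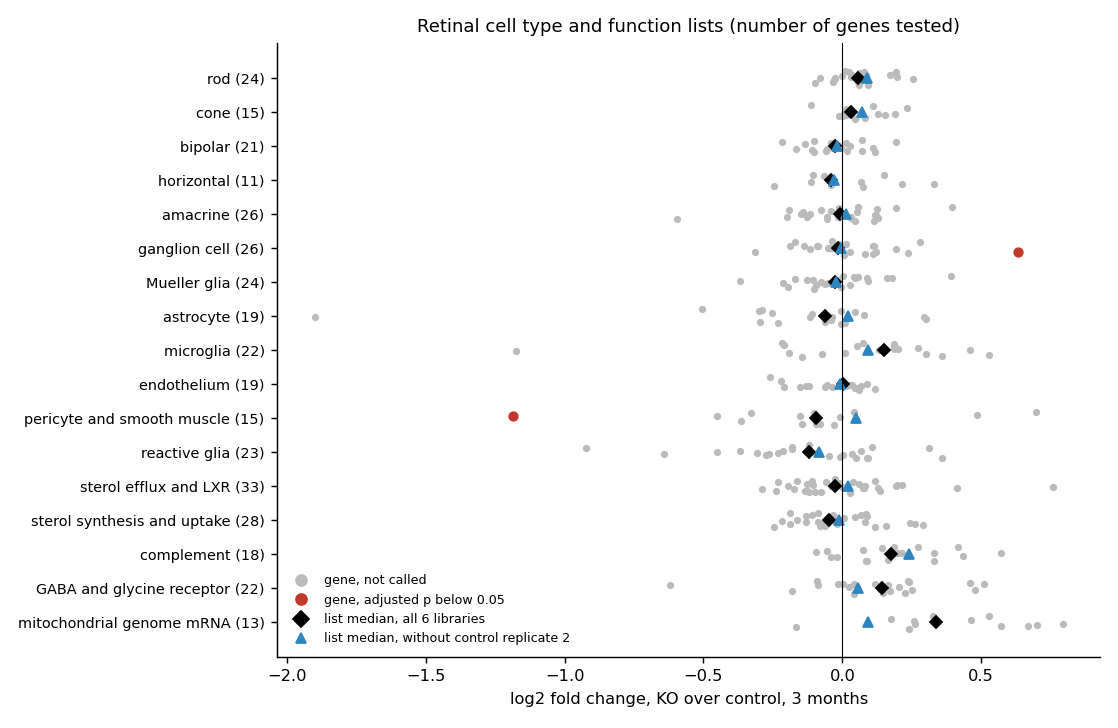
Log2 fold change of KO over control at 3 months (x axis) for each tested gene of 17 retinal cell type and function lists (y axis, number tested in brackets). Diamonds are list medians with all 6 libraries, triangles without control replicate 2, and red points are Stmn2 (0.63) and Des (-1.19), the genes that passed. The mitochondrial median moves from 0.34 to 0.09 when the library is left out.

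In rods, the disc rim protein Prph2 and the transducin Gnat1 stood at 0.02 ± 0.07 and -0.10 ± 0.08 (SE). Gnat1 had 135049, 167659 and 129043 counts in control and 134727, 129704 and 135044 in KO libraries, highest in control replicate 2 and with overlapping groups. Among cone genes the transducin subunit Gnb3, the potassium channel subunit Kcnv2 and the short-wave opsin Opn1sw were at -0.11, -0.01 and 0.08. Arr3, the cone arrestin, had 7561, 7615 and 8022 counts in control and 8740, 8773 and 8693 in KO libraries. All 3 KO values were above the control values, but the change of 0.19 ± 0.06 (SE) did not pass (adjusted p = 0.63, edgeR).

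In the inner retina, the ON bipolar glutamate receptor Grm6 stood at -0.17 ± 0.07 (SE). Grm6 had 11100, 12553 and 11323 counts in control against 10163, 10207 and 10544 in KO libraries, without overlap and with adjusted p = 0.66. The glycine transporter Slc6a9 and the regulator Pax6, both of amacrine cells, stood at -0.08 and -0.06. Sst, the somatostatin precursor of an amacrine subset, had 278, 369 and 356 against 226, 249 and 183 counts, without overlap and with the smallest adjusted p on the amacrine list (log2 fold change -0.59 ± 0.15, SE; adjusted p = 0.26). In horizontal cells the anion exchanger Slc4a3 and the regulator Prox1 stood at -0.11 ± 0.07 and -0.04 ± 0.14 (SE). The ganglion cell genes Nefl, a neurofilament, and Thy1, a surface glycoprotein, were at -0.12 ± 0.07 and -0.09 ± 0.08 (SE), and both were at or nearer 0 without control replicate 2, at -0.03 and -0.01.

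The main products of the glia did not pass the test. Glul, the glutamine synthetase of Müller glia, had 72329, 78934 and 73447 counts in control and 71301, 69638 and 72474 in KO libraries, a log2 fold change of -0.06 ± 0.06 (SE). Apoe, the lipid carrier that ABCA1 loads, had 28192, 36696 and 29541 against 26960, 27878 and 26836 counts. Control replicate 2 was the highest for both, and the change of Apoe went from -0.20 ± 0.09 to -0.07 ± 0.07 (SE) without it (adjusted p = 0.66 and 1.0, edgeR). The astrocyte filament Gfap had 428, 564 and 428 against 372, 425 and 400 counts, and its change of -0.23 ± 0.12 (SE) became -0.09 ± 0.11 (SE). Aldoc, an aldolase of astrocytes, and Ndrg2 were at -0.11 ± 0.09 and -0.12 ± 0.08 (SE). In vessels the glucose transporter Slc2a1 had 10521, 13508 and 10049 against 10105, 9868 and 10434 counts, so only control replicate 2 stood out. The VEGF receptor Flt1 was at 0.06 ± 0.09 (SE).

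Of 23 reactive glia genes 0 passed by edgeR, DESeq2 or limma-voom, and 5 had an unadjusted p below 0.05 (1235 of all 16475 genes tested). Their median was -0.12 and, without control replicate 2, -0.08. Vim, the filament of Müller glia, had 2160, 3424 and 2172 counts in control and 1893, 2214 and 1849 in KO libraries, so its fold change of -0.37 ± 0.15 (SE) followed control replicate 2 and was -0.12 ± 0.09 (SE) without it. The iron oxidase Cp and the signal transducer Stat3 were at 0.07 ± 0.11 and 0.05 ± 0.08 (SE). Serpina3n, a protease inhibitor made by reactive astrocytes, had 188, 236 and 232 against 131, 154 and 131 counts. These groups did not overlap, and the change of -0.64 ± 0.19 (SE) had adjusted p = 0.49. Among microglial genes the receptor Csf1r stood at 0.01 ± 0.12 (SE), and on the complement list, with a median of 0.18 over 18 genes, Cd59a and C4b stood at 0.14 ± 0.16 and 0.09 ± 0.14 (SE).

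Cholesterol handling gave 0 called genes by edgeR, DESeq2 or limma-voom. At an unadjusted p below 0.05 were 3 efflux genes and 1 synthesis gene, against 1235 of all 16475 genes tested. The sterol efflux and LXR list, 33 genes around ABCA1, had a median of -0.03 (0.02 without control replicate 2), and 28 genes of sterol synthesis and uptake had -0.05 (-0.01). Abca4, the retinoid transporter of photoreceptors, and the apoE receptor Lrp1 stood at 0.08 ± 0.08 and -0.13 ± 0.12 (SE). Nr1h2, the LXR-beta receptor that senses oxysterols, had 3986, 4839 and 3972 counts against 3634, 3442 and 3676, without overlap (-0.24 ± 0.08, SE; adjusted p = 0.63). Control replicate 2 was its highest library, and without it the change was -0.14 ± 0.07 (SE; adjusted p = 1.0, edgeR). Scap and Srebf2, the sensor and the transcription factor that switch on sterol synthesis, were at -0.09 ± 0.08 and -0.03 ± 0.07 (SE). Their target enzyme Hmgcs1 was at 0.09 ± 0.09 (SE). It had 3558, 2884 and 3666 counts in control and 3577, 3600 and 3481 in KO libraries, and only control replicate 2 was low.

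By the same 3 tools 0 genes passed on the other function lists, namely antigen presentation, chemokines, clock, complement, GABA and glycine receptors, glutamate receptors, immediate early genes, the interferon response, stress and axon injury, and mitochondrial mRNAs. Unadjusted p below 0.05 was reached by 0 antigen presentation, 0 chemokine, 0 clock, 0 complement and 0 interferon genes. It was reached by 5 of 22 GABA and glycine receptor, 2 of 23 glutamate receptor and 3 of 23 immediate early genes. On the stress list it was 1 of 22 and on the mitochondrial list 2 of 13, against 1235 of all 16475 genes tested. The endoplasmic reticulum chaperone Hspa5 was at 0.18 ± 0.13 and the stress gene Ddit4 at -0.24 ± 0.10 (SE). The class I antigen gene H2-D1 was at -0.07 ± 0.07, the interferon regulator Irf7 at 0.00 ± 0.10, the clock repressor Nr1d1 at -0.08 ± 0.06 and the early gene Egr1 at 0.08 ± 0.12 (SE). The medians of these lists lay between -0.04 and 0.18 apart from the mitochondrial one. The 13 mitochondrial mRNAs were all lower in control replicate 2, by a median of 1.03 on the log2 scale, and made up 1.73%, 1.002% and 1.77% of the counts in control against 1.68%, 1.91% and 1.75% in KO libraries. Their median fold change of 0.34 was 0.09 without that library. The receptor list for GABA and glycine moved likewise from 0.14 to 0.06, and the stress list from -0.04 to 0.02.

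The 11 genes that rose were, except for Tagap1, neighbours at the start of chromosome 3. Of 24 tested genes between 3 and 13 Mb, 10 were higher and 0 lower, and all 24 had log2 fold changes above 0, with a median of 0.63 (0.56 without control replicate 2). Over all 16475 genes tested, 0.0668% were called higher and 8313 were above 0. The 13 Mb edge, between Snx16 and Ralyl, was set with earlier results of these data known. These counts are therefore no separate test of the region. The next 34 tested genes, from 13 to 30 Mb, had a median of 0.09, with 0 calls by edgeR and 2 genes at an unadjusted p below 0.05. Of these 34, 25 were above 0 and 9 below. Without control replicate 2 the median was 0.03 and 14 were below 0. Tpd52, a vesicle traffic protein (Entrez 21985, chr3:8926530-9005393), had 6885, 5788 and 6665 counts in control and 10176, 10471 and 10342 in KO libraries. The KO values were tight and wholly above the control values, at 351 ± 7.82 against 217 ± 20.7 CPM (SD, n = 3 each), and the log2 fold change was 0.69 ± 0.07 (SE; adjusted p = 2.5e-05, edgeR).

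Pex2, a peroxisome assembly protein, had 1240, 1120 and 1285 counts against 1842, 1936 and 1924 (0.66 ± 0.08, SE). Fabp12, a fatty acid binding protein, had 2516, 2377 and 2526 against 3693, 3829 and 3690 (0.61 ± 0.07, SE). Stmn2, the microtubule regulator of growing axons and a ganglion cell marker, had 1819, 1490 and 1806 against 2522, 2756 and 2572 (0.63 ± 0.09, SE). Impa1, an inositol phosphatase, had 1535, 1399 and 1554 against 2334, 2359 and 2209 (0.63 ± 0.08, SE). All of these had adjusted p at or below 7.3e-04, and the groups did not overlap. The others that passed were Snx16 (0.79), Zbtb10 (0.69), Zfp704 (0.68), Pag1 (0.63) and Zfhx4 (0.56), and each of these 5 lost its call when any 1 of the KO libraries was left out (edgeR).

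Pkia, an inhibitor of protein kinase A, had 927, 593 and 1054 counts against 1509, 1575 and 1386, and its adjusted p was 0.052 with all libraries and 0.0017 without control replicate 2, its lowest library (edgeR). Hey1, a Notch effector, and Zc2hc1a likewise missed the threshold with all libraries and passed without that one (adjusted p = 0.031 and 0.024). Of 21 alternative settings, Pkia passed under 11, Zc2hc1a under 9 and Hey1 under 6, among them DESeq2 with all libraries for each. The rise was also present at 12 months, where the median of the same 24 genes was 0.61. At both ages 5 genes passed with the same sign.

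**Figure D5:**
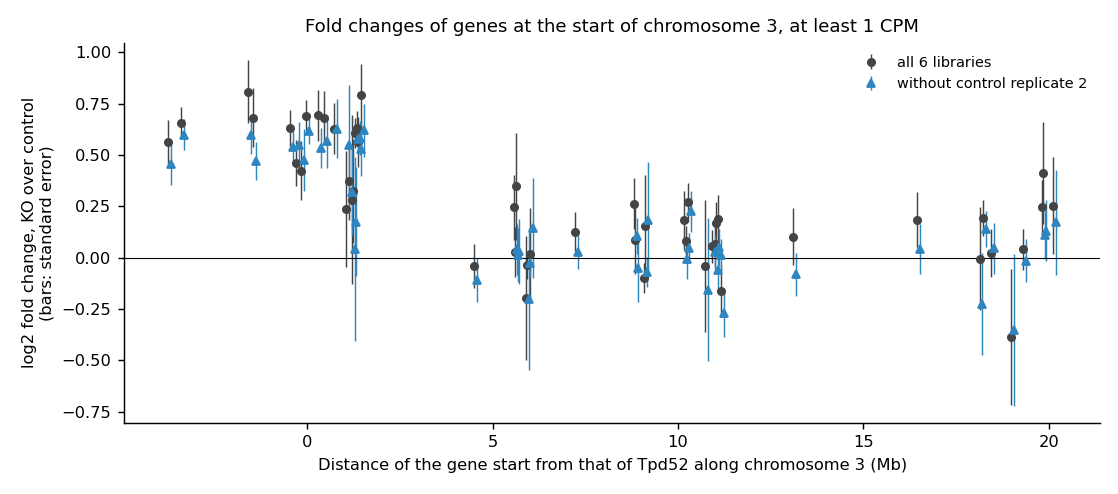
Log2 fold change of KO over control at 3 months (y axis, bars 1 standard error) of genes with at least 1 CPM by the distance of their start from that of Tpd52 along chromosome 3 (x axis, Mb), with all 6 libraries (circles) and without control replicate 2 (triangles). The 19 genes within the first 13 Mb lie above 0, with a median of 0.63, and those beyond lie mostly nearer 0, on both sides of it.

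On chromosome 17 the related genes Tagap1 and Tagap moved in opposite directions. Tagap1 (Entrez 380608, chr17:6954965-6961565) had 468, 449 and 310 counts in control and 788, 806 and 754 in KO libraries, a log2 fold change of 0.95 ± 0.14 (SE; adjusted p = 0.0012, edgeR). Tagap, a GTPase-activating protein of T cells (Entrez 72536, chr17:7926000-7934897), had 77, 36 and 122 against 9, 20 and 13 counts, at -2.46 ± 0.41 (SE; adjusted p = 0.0095). Of the 50-base words of the Tagap transcripts 47.6% occur in Tagap1, and 63.7% of those of Tagap1 occur in Tagap, so counts of the 2 genes are uncertain. Tmem181b-ps, also on chromosome 17, had 7004, 4791 and 7277 against 5377, 5655 and 5363 counts. Control replicate 2 lay below the KO libraries there, and the fall missed the threshold with it and passed without it (-0.38 ± 0.07, SE; adjusted p = 0.011), while 44.4% of its words occur in Tmem181a. At 12 months the log2 fold changes were of the opposite sign, -0.44 for Tagap1 and 0.59 for Tagap, and the difference between the ages passed for both (adjusted p = 0.0018 and 0.021). Their neighbour Fndc1, 0.784 Mb from Tagap1, had 2335, 3024 and 664 against 5377, 5163 and 5353 counts, without overlap. It did not pass (1.41 ± 0.48, SE; adjusted p = 0.65, edgeR), and its change was -1.11 at 12 months. Control replicate 3 was the lowest library for both Fndc1 and Tagap1. Other neighbours varied. Rps6ka2 (0.08) and Pde10a (-0.04) stood near 0, while Rnaset2b was at 0.49, Rsph3b at -0.45 and Prr18 at -0.65. None of these passed (edgeR), though the KO values of Prr18 lay wholly below the control values. At 12 months Rnaset2b and Rsph3b had the opposite sign, at -0.92 and 0.41.

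Hsf1, the heat shock transcription factor (Entrez 15499, chr15:76477362-76501155), was the 1 gene outside the groups above that passed with a mean of at least 1 CPM. It had 2425, 2761 and 2497 counts in control and 1898, 1959 and 1841 in KO libraries, wholly below, at 86.2 ± 5.55 against 64.5 ± 2.47 CPM (SD, n = 3 each). The log2 fold change was -0.42 ± 0.08 with and -0.36 ± 0.08 without control replicate 2 (SE; adjusted p = 0.019 and 0.040). The call was lost under 7 of 21 alternative settings, with an adjusted p of up to 0.19. These were leaving out KO replicate 1, 2 or 3, fitting the 6 libraries of 3 months alone, not testing genes of other tissues (with or without control replicate 2) and the replicate block without that library. At 12 months it had 2105, 2486 and 2392 counts in control and 2303, 2424 and 2258 in KO libraries, and the difference between the ages did not pass (adjusted p = 0.41). Tagap lost its call without KO replicate 1 or 3, and when the 6 libraries of 3 months were fitted alone. Iqcm, with 34, 22 and 16 counts in control against 1, 0 and 0, passed on few reads, and its summed counts give a ratio of 71.6 with a 95% counting interval of 12.4 to 2866. Its call was lost without KO replicate 2 or 3.

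More genes passed when the spread was estimated from the 3-month libraries alone without control replicate 2, that is from 2 control and 3 KO libraries. Then 151 of 16184 genes passed (0.933%), 89 higher and 62 lower. Of these, 35 were also among the 37 calls. In 121 the KO values did not overlap any of the 3 controls. Of the 16475 genes of the main fit, 7.66% lay wholly below and 7.97% wholly above. The calls rest on the same 3 KO and 2 of the same control libraries, so this count is no separate test of them. In 24 of the calls control replicate 2 lay beyond the KO mean. They held 19 genes of the muscle list and 3 further muscle genes, 6 lens genes, 15 chromosome 3 genes, the fibrillin gene Fbn1, 7 unnamed gene models and 100 other named genes, of which 70 were higher and 30 lower. The muscle genes Smpx, Xirp2 and Trim54, which are on no list, are among these 100. The genes of these 100 named next were chosen after their values were seen.

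Of 24 rod genes 4 passed in that fit, each higher by a small amount: the rod arrestin Sag (0.12), the rod identity factor Nr2e3 (0.15), the cyclase activator Guca1a (0.15) and the nuclear receptor Esrrb (0.22). Of 15 cone genes 2 passed, Arr3 (0.17) and the phosphodiesterase Pde6c (0.20). Sag had 75385, 86830 and 76478 counts in control and 82132, 79499 and 84597 in KO libraries, so control replicate 2 was the highest of all 6. Of 24 Müller glia genes, the Notch target Hes1 (499, 589 and 535 against 647, 671 and 794 counts; 0.45) and Rgr (0.37), an opsin of Müller glia and pigment epithelium, were higher, and Spc25 (-0.19) was lower. Among genes of matrix and adhesion, Thbs1 had 222, 241 and 201 counts against 376, 323 and 330 (0.70), the integrin Itgb8 132, 131 and 114 against 241, 216 and 216 (0.87), and Ccn1 175, 185 and 136 against 351, 307 and 247 (0.96). In these 3 the KO values lay above all controls, control replicate 2 included. Anxa1 had 257, 764 and 333 against 133, 133 and 192 counts (-0.94), with control replicate 2 highest, and the Nogo receptor relative Rtn4rl2 had 4180, 5143 and 4002 against 3213, 2980 and 3286 (-0.37). With all 12 libraries in the fit, the smallest adjusted p among the rod, cone, Müller glia and matrix genes of this paragraph was 0.15, that of Thbs1 (edgeR).

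The difference between the KO effects at 3 and 12 months passed for 21 genes (0.127% of those tested), 18 of them lower and 3 higher at 3 months. Of these 21, 11 were muscle list genes, all lower. Edn2, an endothelin that injured photoreceptors make, had 137 to 174 counts in control libraries at 3 months, overlapping the KO libraries (log2 fold change -0.18 ± 0.19, SE). At 12 months its log2 fold change was 1.72, and the difference of -1.90 passed (adjusted p = 0.0013). Serpina3n differed likewise, at -0.64 and 0.90 (difference -1.54; adjusted p = 0.013). The 12-month KO libraries stand apart in Xist, the RNA of the inactive X chromosome, with 1583, 2103 and 2519 counts against 5, 5 and 6 in 12-month control and 2 to 18 in the 3-month libraries. The Y-linked gene Ddx3y had 1274, 1001 and 1337 counts in the same KO libraries and 916, 1136 and 981 in 12-month control. The part of this in the differences between the ages was not tested.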

How the data were processed

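Per the labels' protocols, libraries were stranded and poly(A)-selected, from retinal RNA whose integrity number exceeded 8.0. Per the submitters' processing notes, HISAT2 2.1.0, featureCounts 1.6.4 and DESeq2 1.22.1 were used with GRCm38. The authors deposited unnormalized read counts by Entrez ID, 1 file per library. How strand and multiply aligned reads were handled is not given in the sources used here. Of the counts from 1 to 20, 60.7% to 70.2% were even, so pairs appear to be counted as separate reads, and intervals are too narrow.

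Counts were fitted with edgeR 4.0.16 in R 4.3.3 (filterByExpr, TMM, robust quasi-likelihood, 1 coefficient per group, all 12 libraries), with Benjamini-Hochberg adjustment over all genes, a threshold of 0.05 and a biological coefficient of variation of 0.11. The model was tested on counts simulated with a common spread for all genes, no outlying library and no reads counted in pairs. That test therefore does not cover the effect of control replicate 2 or of paired counts. Levels are CPM from TMM-scaled totals, and fold changes are fitted values. RefSeq (GRCm38.p6) named 25275 of the IDs, GENCODE 18, and 1886 stayed unnamed. RefSeq positions inside the 3 Mb gap that opens chromosome 3 were left out.

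Named genes were Abca1, called genes outside other-tissue lists with at least 1 CPM, genes called only without control replicate 2, up to 4 called members of a list (12 for muscle and lens), or else its most abundant members. Others were named after their values were seen, among them Sst, Serpina3n, Gfap, Nr1h2, Col3a1, Acta2, Edn2, Iqcm, Foxe3, Egr1 and the unchanged muscle and lens genes. The members and the 31 lists were chosen with earlier results of these data known. Replicate numbers did not pair samples (correlations of same-numbered deviations -0.06 to -0.021). Alternatives were other scalings, filters and tools (DESeq2 1.42.0, limma 3.58.1), other sets of libraries or genes, a block and each library left out. Some list members that the rule would name are not reported here.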

Additional observations from a re-analysis of the deposited data

Results flagged for a closer look

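The KO effect at 3 months differed from that at 12 months (edgeR interaction test) for 20 named genes, given here as the log2 effect at 3 minus that at 12 months. Skeletal muscle genes made up 11 of them, with Myh2 at -9.82, Tnni2 at -9.28, Myh1 at -7.86, Tnnc2 at -5.38, Myl1 at -5.31, Mb at -3.78, Acta1 at -2.69, Tcap at -2.47, Atp2a1 at -2.45, Mylpf at -2.39 and Tpm2 at -1.93. The filament gene Des was at -2.04. Myh2 had 0 counts in all 3 control libraries of 12 months, so the size of its fitted value depends on the prior count.

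Tagap was at -3.05 and its relative Tagap1 at 1.39. Iqcm was at -6.40 on few counts at 3 months. Edn2 and the protease inhibitor Serpina3n were at -1.90 and -1.54. The ubiquitin ligase Trim67 was at 0.65, with 2098 to 2675 counts in KO and 3588 to 3702 in control libraries at 12 months. Xist was at -7.96: it had 2 to 18 counts in the 3-month libraries, 5, 5 and 6 in the 12-month control and 1583 to 2519 in the 12-month KO libraries. Xist moves with the 12-month KO group, so its part in the other differences between the ages, such as those of Edn2, Serpina3n and Trim67, cannot be told apart from age and genotype. The mucin Muc4 was at -5.37, and at 12 months it had 27, 43 and 25 counts with the deletion and 2, 0 and 0 without.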

How the results depend on the processing

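Against 37 calls at 3 months, DESeq2 gave 63 and limma-voom with quality weights 79. Leaving the genes of other tissues out of the test gave 10 calls, or 12 without control replicate 2 (chosen after seeing the data), and the 3-month libraries alone without that library gave 151. DESeq2 without control replicate 2 (chosen after seeing the data) gave 50. The counts under 8 further settings of scaling, filter, threshold and library set lay between 26 and 45. Leaving out each library in turn gave 21 to 41 calls, the lowest, 21, without KO replicate 3. The difference between the ages gave 41 calls by DESeq2 against 21, and 14 to 29 with each library left out, the lowest without KO replicate 3 of 3 months. The replicate block gave 35 calls at 3 months and 23 for the difference between the ages; the numbers do not pair the samples. Of the 37 named genes called, 18 passed under every alternative in which they were tested (up to 21 per gene), 19 lost their call under at least 1, and none changed sign. The 18 include Tnnc2, Acta1, Mb, Myh1, Tpd52, Pex2, Stmn2 and Tagap1. With 3 libraries a group, and 2 controls where replicate 2 is left out, a change of the size of that of Arr3 did not pass in the fit over 12 libraries.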
